A study of Homo sapiens with 6 samples.

Results

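The semaphorins, plexins, neuropilins, ephrins and Eph receptors of BT-549 triple-negative breast cancer cells were followed after silencing of IRF1, the transcription factor that mediates much of the response to interferons. The silenced cells were given doxycycline at 500 ng/ml and the control cells 0.1% DMSO, so effects of the drug and of silencing cannot be told apart. All gene symbols of these families (SEMA, PLXN, NRP, EPH and EFN) were taken from the count table, which gave 53 members among 37887 listed genes, namely 20 semaphorins, 11 plexins and neuropilins, 8 ephrins and 14 Eph receptors. The rule used gene symbols alone, although these families and the list of signalling partners were picked with earlier results of these data known. Of the 46 members tested after silencing, 13 were called higher and 17 lower, beside 24.1% and 26.4% of all genes tested. Without SEMA3E, which passed the filter on low counts through the silenced samples alone, 12 of 45 were higher. Of the 8 ephrins, 5 fell, 0 rose and 3 did not pass. Among the members that changed over 2-fold were SEMA7A (higher) and PLXNA4, PLXNA2, SEMA3F and EFNA5 (lower).

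Semaphorins are guidance ligands, of which class 3 is secreted, classes 4 to 6 span the membrane and class 7 is anchored by a lipid. Their main receptors are the plexins, which act on small GTPases, and secreted semaphorins mostly need a neuropilin as co-receptor. Ephrins are ligands held on the cell surface, the A class by a lipid anchor and the B class by a transmembrane segment, and they bind Eph receptor tyrosine kinases on neighbouring cells, so that both cells receive a signal. In epithelial tissue and in carcinoma cells these systems are known for their part in adhesion, repulsion and migration.

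BT-549 is an established human cell line with a mesenchymal phenotype. The 3 libraries of the control group came from cells labelled control shRNA and given 0.1% DMSO, and the 3 libraries of the IRF1shRNA group from cells given doxycycline at 500 ng/ml to induce an shRNA against IRF1. The series text instead describes a single line with an inducible IRF1 shRNA that received DMSO or the drug, so which shRNA the control cells carried was not settled here. Per the methods, cells carrying the shRNA vectors were selected with puromycin after transduction, with no clones named, and because doxycycline was given to the silenced cells alone, effects of the drug and of the loss of IRF1 cannot be told apart. Poly(A) RNA of triplicate cultures was sequenced, and a level is given here as CPM (counts scaled to a common library total) after TMM scaling, the trimmed-mean normalization of edgeR.

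Total counts ran from 55143808 in IRF1shRNA replicate 2 to 160436234 in IRF1shRNA replicate 3. IRF1 itself stood at 45.3, 48.1 and 51.5 CPM in the control cells and at 13.8, 14.9 and 14.6 CPM in the IRF1shRNA cells (log2 fold change −1.74 ± 0.06 SE, adjusted p = 4.53e-13, edgeR's quasi-likelihood test). VIM (918 and 625 CPM on average in control and IRF1shRNA cells), FN1 and ZEB1 were high, while CDH1 (0.676 and 0.673 CPM) and EPCAM, ESR1 and PGR were low in both groups. ERBB2 averaged 50.8 CPM before and 36.4 CPM after silencing. Of the markers of other cell types, PTPRC, an immune gene, averaged 0.526 and 0.481 CPM, and CD3E, PECAM1, CDH5 and VWF stayed at or below 0.155 CPM in every sample.

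Of the 53 members, 46 were abundant enough to be tested, and 30 of the 46 (65.2%) passed an adjusted p of 0.05 in edgeR's quasi-likelihood test, beside 50.5% of the 18851 genes tested. Higher levels were found for 13 members (all genes, 24.1% called higher) and lower levels for 17 (all genes, 26.4% called lower), and 16 did not pass. A change over 2-fold was found for 4 members upward (all genes, 3.43%) and 6 downward (all genes, 4.43%). In 30 of the 46 members (65.2%) control and IRF1shRNA samples were fully apart in CPM (all genes, 56.8%). The median log2 fold change of the 46 members was −0.04, against −0.00245 for all genes tested, and the range was −1.56 to 2.10. These values describe bulk RNA, in which fewer cells expressing a gene and less RNA per cell cannot be told apart. With a filter of 1 CPM in at least 3 samples, 40 members were tested, and 12 were higher and 16 lower. Of all genes tested under that filter, 32.5% were called higher and 32.4% lower, so their shares were larger too. Without control replicate 2, 8 rather than 13 members were called higher (all genes, 20.2% rather than 24.1% called higher). SEMA3E passed the filter through the IRF1shRNA samples alone, where it is high, and without it 12 of 45 members were higher, 3 of them over 2-fold.

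**Figure D1:**
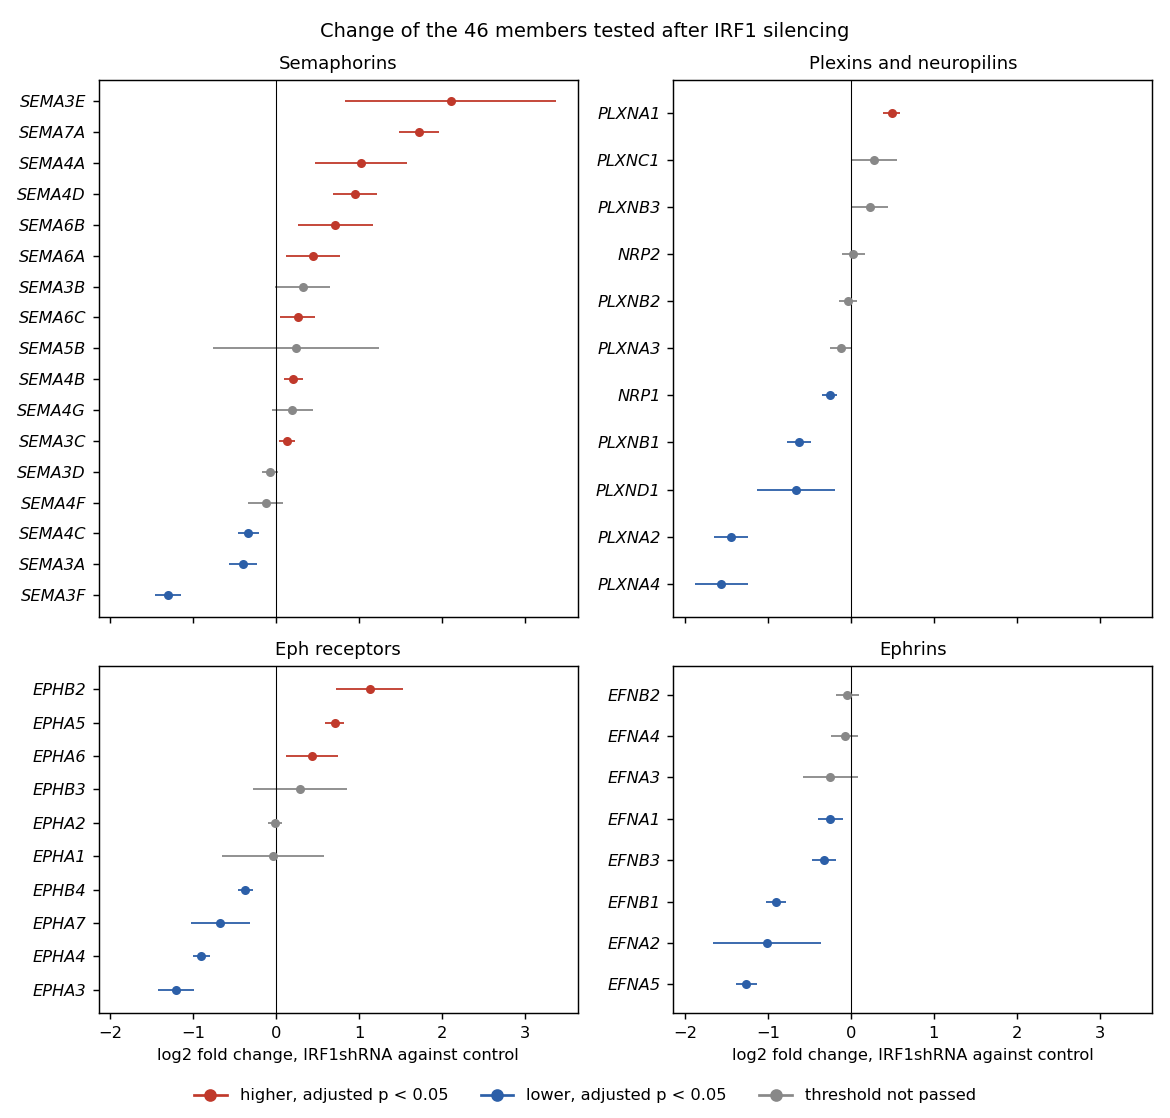
Log2 fold change of IRF1shRNA against control cells (x axis) for the 46 members tested, in 4 panels by role, with points for the edgeR estimate and bars for its 95% confidence interval. Red and blue mark members called higher and lower at an adjusted p under 0.05 and grey those that did not pass. The 13 higher members (all genes, 24.1% called higher) include 9 semaphorins. Without SEMA3E, which passed the filter through the IRF1shRNA samples alone, these numbers are 12 and 8. No ephrin estimate lies to the right of 0, though that of EFNB2, at −0.04, did not pass.

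Semaphorins divided in both directions. Among the 17 tested, 9 rose (8 without SEMA3E), 3 fell and 5 did not pass, with a median log2 fold change of 0.24 (all genes, 24.1% called higher and 26.4% lower). By class, 2 of 6 class 3 members rose (1 of 5 without SEMA3E) and 2 fell, 3 of 6 class 4 members rose and 1 fell, all 3 tested class 6 members rose, and SEMA7A, the sole member of class 7, rose. SEMA5B did not pass, and SEMA5A had a count of 0 in every library.

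SEMA3F (chr3:50155045-50189075, plus strand, GENCODE 29 on GRCh38) encodes a secreted semaphorin that signals mainly through neuropilin-2 and is known as a repellent for tumour and endothelial cells. Its level was 46.3, 47.6 and 56.3 CPM in the control cells and 18.4, 21.3 and 21.2 CPM in the IRF1shRNA cells. The groups did not overlap, and the lowest control sample was more than 2 times the highest IRF1shRNA sample. SEMA3F fell by 1.31 ± 0.08 (SE) on the log2 scale, to 40.5% of the control level (adjusted p = 1.94e-10, edgeR).

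SEMA3F was also among the members whose RefSeq promoter windows (GRCh38.p14, 300 bases, from 250 before to 50 after an annotated start) held the core letters of the interferon-stimulated response element that IRF1 binds, namely GAAA, 2 bases of any kind and GAAA again, searched on both strands. Windows were given for 47 of the 53 members. The letters occurred in 3.57% of 35116 windows and in 4.38% of 27305 gene symbols. Members with a match were SEMA3F and EPHA4, both lower after silencing, and PLXNC1, which did not pass, that is 2 of 14 lower members, 0 of 11 higher members and 1 of 16 that did not pass. The window of SEMA3F belongs to an alternative start, and its match, which begins 9 bases before that start and lies on the opposite strand, is printed in capitals within 250 bases before and 10 bases after the start (chr3:50158769-50159028, plus strand), since it places the letters relative to the start of the semaphorin that fell most.
SEMA3F: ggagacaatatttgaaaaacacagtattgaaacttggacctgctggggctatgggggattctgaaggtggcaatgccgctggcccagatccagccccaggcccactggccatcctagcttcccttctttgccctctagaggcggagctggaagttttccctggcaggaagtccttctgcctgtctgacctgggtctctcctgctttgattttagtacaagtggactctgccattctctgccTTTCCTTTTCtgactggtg
A match in these letters is a description of the sequence, and no binding was measured here.

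SEMA3A and SEMA4C were the other semaphorins that fell. SEMA3A, the classical ligand of neuropilin-1, stood at 8.20, 7.72 and 8.72 CPM in control and 6.18, 5.91 and 6.45 CPM in IRF1shRNA cells, with no overlap (log2 fold change −0.41 ± 0.08 SE, adjusted p = 0.000356). SEMA4C, a transmembrane ligand of plexin-B2, stood at 29.4, 31.5 and 33.3 CPM in control and 25.4, 23.7 and 25.5 CPM in IRF1shRNA cells, again without overlap (−0.34 ± 0.06 SE, adjusted p = 0.000181). Both changes were smaller than that of SEMA3F, whose interval of −1.46 to −1.15 covered neither value.

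SEMA7A (chr15:74409289-74433958, minus strand) encodes the lipid-anchored semaphorin that binds beta-1 integrin and plexin-C1. Its level was 2.85, 3.84 and 2.66 CPM in control cells and 10.7, 9.31 and 10.7 CPM in IRF1shRNA cells. Every IRF1shRNA sample was more than 2 times every control sample. The rise was 3.30-fold (log2 fold change 1.72 ± 0.12 SE, adjusted p = 1.31e-09, edgeR). Its receptors did not pass the test: PLXNC1 went from 2.39 ± 0.42 (SD, n = 3) to 2.86 ± 0.28 CPM (log2 fold change 0.28 ± 0.13 SE, adjusted p = 0.0902), and ITGB1, which encodes beta-1 integrin, from 1727 to 1750 CPM on average.

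SEMA4D, the transmembrane ligand of plexin-B1 and known on T cells as CD100, stood at 1.86, 1.76 and 1.44 CPM in control and 3.50, 3.06 and 3.13 CPM in IRF1shRNA cells. The groups were clearly apart, and the rise was 1.93-fold (log2 fold change 0.95 ± 0.13 SE, adjusted p = 5.89e-06). Its receptor gene PLXNB1 fell. SEMA4A, a class 4 semaphorin studied mostly in immune cells, had 0.471, 0.359 and 0.275 CPM in control and 0.643, 0.937 and 0.705 CPM in IRF1shRNA cells, a low level without overlap and a log2 fold change of 1.02 ± 0.26 SE (adjusted p = 0.0032).

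SEMA6B, a transmembrane ligand of class A plexins, had 0.998, 0.816 and 1.52 CPM in control and 1.93, 1.30 and 2.15 CPM in IRF1shRNA cells. Control replicate 3 lay above IRF1shRNA replicate 2, so the groups overlapped, with a log2 fold change of 0.71 ± 0.21 SE (adjusted p = 0.00925). Leaving out control replicate 2 or IRF1shRNA replicate 3 ended the call (0.54, adjusted p = 0.0598, and 0.56, adjusted p = 0.0726). SEMA6A and SEMA6C, of the same class, rose by 0.44 ± 0.15 and 0.26 ± 0.10 SE on the log2 scale with adjusted p of 0.0224 and 0.0434. The call of SEMA6A was lost without any of 4 single libraries (control replicates 2 and 3, IRF1shRNA replicates 1 and 3, adjusted p up to 0.0846), and that of SEMA6C without any of 4 (control replicates 1 and 2, IRF1shRNA replicates 1 and 3) and also with DESeq2, without the count filter and with thinned libraries (adjusted p up to 0.178).

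SEMA3E, which binds plexin-D1 without a neuropilin, had counts of 2, 2 and 10 in the control libraries and 26, 8 and 18 in the IRF1shRNA libraries, or 0.0162, 0.0163 and 0.0671 CPM against 0.206, 0.144 and 0.109 CPM. The groups did not overlap in CPM. It was the sole member to pass the filter on low counts through the IRF1shRNA samples alone, and 2 control libraries were below the 3 counts taken as the detection floor. A gene that enters only where it is high had to differ, so its fitted log2 fold change of 2.10 ± 0.60 SE (95% interval 0.83 to 3.37, adjusted p = 0.00737) is given as a description and supports no rise. Without IRF1shRNA replicate 1 it did not pass (1.79, adjusted p = 0.0595).

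The semaphorins with the highest level per length were SEMA4B and SEMA3C, at 16.7 and 15.3 CPM per kilobase of exon in control cells. SEMA4B, a transmembrane semaphorin, stood at 110.0, 114 and 127 CPM in control and 128, 134 and 142 CPM in IRF1shRNA cells, a narrow gap with a log2 fold change of 0.21 ± 0.05 SE (adjusted p = 0.00393). SEMA3C, a secreted ligand of both neuropilins, stood at 99.5, 94.4 and 94.5 CPM in control and 102, 111 and 104 CPM in IRF1shRNA cells, also without overlap (0.13 ± 0.05 SE, adjusted p = 0.0191). The call for SEMA3C was lost without control replicate 2 (0.12, adjusted p = 0.0842) or without IRF1shRNA replicate 2 (0.10, adjusted p = 0.0673). SEMA3B, SEMA3D, SEMA4F, SEMA4G and SEMA5B did not pass, with log2 fold changes of −0.12 to 0.32. SEMA4G shares 27.4% of its exon bases with genes on the other strand. SEMA3G and SEMA6D were too low to test, the latter at 0 counts in every control library and 2, 2 and 3 counts in the IRF1shRNA libraries, which is at or under the floor.

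**Figure D2:**
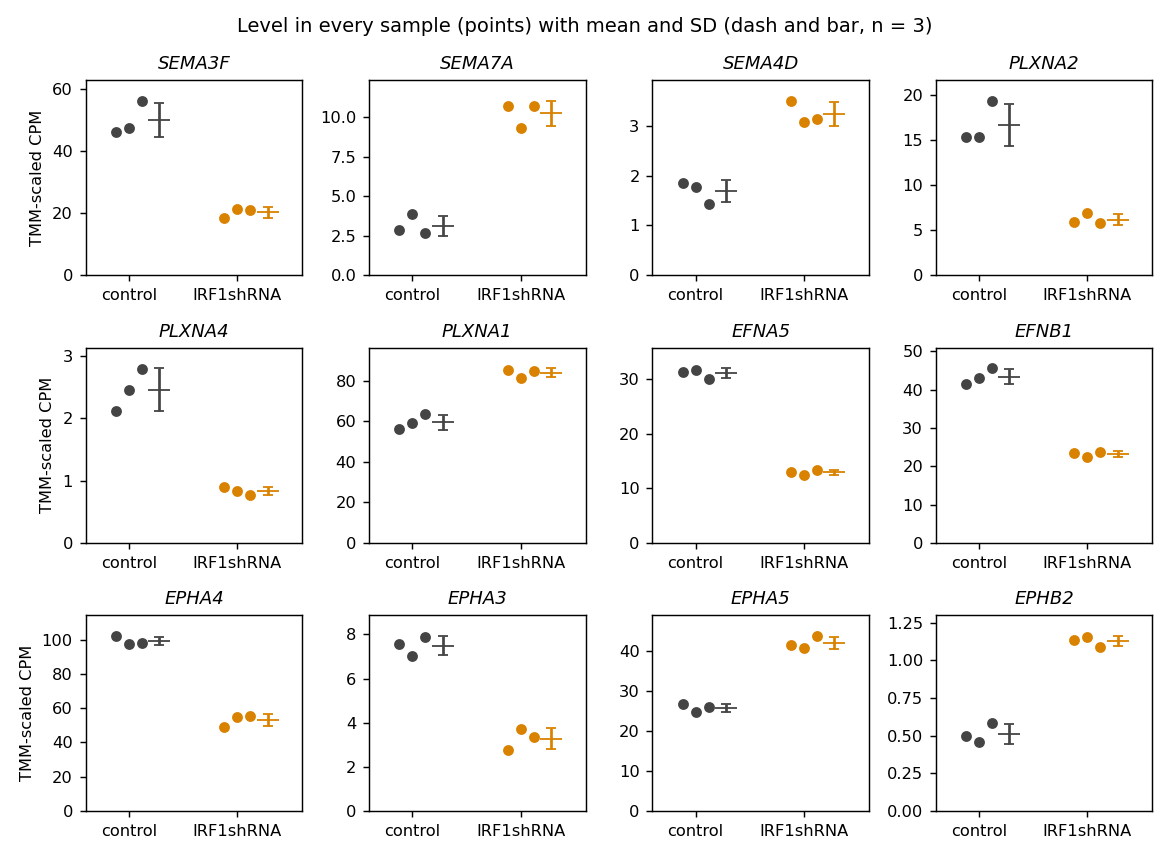
TMM-scaled CPM (y axis, from 0) of 12 members in each of the 3 control and 3 IRF1shRNA samples (points), with a dash for the mean and a bar for the SD of the 3. In each of these panels the groups are apart: SEMA3F, PLXNA2, PLXNA4, EFNA5, EFNB1, EPHA4 and EPHA3 are lower in IRF1shRNA cells and SEMA7A, SEMA4D, PLXNA1, EPHA5 and EPHB2 are higher. All 12 are called members without overlap, so this separation follows from the choice of genes. Of the members tested 65.2% were fully apart, and of all genes tested 56.8%.

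Among the receptors for semaphorins, all 11 were tested, and 1 rose, 5 fell and 5 did not pass, with a median log2 fold change of −0.12 (all genes, 24.1% called higher and 26.4% lower). The class A plexins divided, with PLXNA2 and PLXNA4 lower, PLXNA1 higher and PLXNA3 not past the threshold.

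PLXNA2 (chr1:208022242-208244320, minus strand) and PLXNA4 (chr7:132123332-132648688, minus strand) are both receptors for class 6 semaphorins and, with a neuropilin, for class 3. PLXNA2 stood at 15.3, 15.3 and 19.3 CPM in control and 5.91, 6.85 and 5.77 CPM in IRF1shRNA cells, so that every IRF1shRNA sample was far below every control sample. The fall was 2.72-fold (log2 fold change −1.44 ± 0.10 SE, adjusted p = 1.41e-09, edgeR). PLXNA4 was less abundant, at 2.11, 2.46 and 2.80 CPM in control and 0.897, 0.829 and 0.778 CPM in IRF1shRNA cells. Its groups were likewise far apart, and its fall of 2.95-fold was the greatest decrease among the members tested (−1.56 ± 0.15 SE, adjusted p = 1.41e-07).

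PLXNA1, which pairs with neuropilin-1 in the response to class 3 semaphorins, was the sole receptor of this group to rise. It stood at 56.2, 58.9 and 63.3 CPM in control and 85.3, 81.2 and 84.6 CPM in IRF1shRNA cells, without overlap (log2 fold change 0.49 ± 0.05 SE, adjusted p = 1.47e-07). On the scale of CPM per kilobase it was already the most abundant class A plexin in control cells (5.43, against 4.11 for PLXNA3, 1.21 for PLXNA2 and 0.150 for PLXNA4), and in IRF1shRNA cells it reached 7.65 while PLXNA2 and PLXNA4 were at 0.448 and 0.0510.

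PLXNB1, the receptor of SEMA4D, fell from 32.3, 32.9 and 32.4 CPM to 21.9, 18.6 and 22.4 CPM, with no overlap (log2 fold change −0.63 ± 0.07 SE, adjusted p = 5.22e-07). PLXNB2, the most abundant plexin per length, was at 126, 135 and 140 CPM in control and 131, 123 and 137 CPM in IRF1shRNA cells. Its groups overlapped, and the interval of its log2 fold change ran from −0.14 to 0.07 (adjusted p = 0.642). PLXND1, the receptor of SEMA3E, was at 1.04, 1.62 and 1.74 CPM in control and 0.802, 0.667 and 1.22 CPM in IRF1shRNA cells, with overlap between control replicate 1 and IRF1shRNA replicate 3 (−0.66 ± 0.22 SE, adjusted p = 0.0202). That call was lost without any of 4 single libraries, namely control replicate 2 (−0.59, adjusted p = 0.0812), control replicate 3 (−0.51, adjusted p = 0.105), IRF1shRNA replicate 1 (−0.56, adjusted p = 0.0908) or IRF1shRNA replicate 2 (−0.52, adjusted p = 0.0814).

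NRP1, the co-receptor for SEMA3A and for VEGF-A, was the most abundant member of the group per length, at 332, 323 and 335 CPM in control and 263, 286 and 282 CPM in IRF1shRNA cells. All IRF1shRNA samples were below all control samples, by a modest amount (log2 fold change −0.25 ± 0.04 SE, adjusted p = 0.000104). NRP2, through which SEMA3F acts, averaged 20.0 ± 0.69 (SD, n = 3) and 20.4 ± 1.33 CPM and did not pass (interval of the log2 fold change −0.11 to 0.17). PLXNA3 did not pass either (−0.12, adjusted p = 0.148), although without IRF1shRNA replicate 3 it did (adjusted p = 0.00778). PLXNB3 (0.23, adjusted p = 0.076) passed under 3 other settings of scaling or filter (adjusted p down to 0.0322), and PLXNC1 passed without control replicate 1 (adjusted p = 0.0142).

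Ephrins moved downward. All 8 were tested, and 0 rose, 5 fell and 3 did not pass, with a median log2 fold change of −0.29 and a range of −1.26 to −0.04. Of all genes tested, 26.4% were called lower and 24.1% higher. Of the ephrin-A ligands 3 of 5 fell, and of the ephrin-B ligands 2 of 3.

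EFNA5 (chr5:107376889-107670895, minus strand), a lipid-anchored ligand of several EphA receptors and of EphB2, was at 31.4, 31.7 and 30.0 CPM in control and 13.0, 12.5 and 13.3 CPM in IRF1shRNA cells. The samples within each group were close to each other and the groups far apart. It fell 2.39-fold (log2 fold change −1.26 ± 0.06 SE, adjusted p = 2.22e-11, edgeR), to 41.7% of the control level.

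EFNB1 (chrX:68828997-68842147, plus strand), a transmembrane ligand of EphB receptors, was the most abundant ephrin per length in control cells. It stood at 41.6, 43.1 and 45.6 CPM in control and 23.4, 22.4 and 23.8 CPM in IRF1shRNA cells, with no overlap and a fall of 1.87-fold (−0.90 ± 0.06 SE, adjusted p = 4.14e-10). EFNB3, also transmembrane and a ligand of EphA4, fell from 27.7, 30.3 and 30.3 CPM to 22.9, 21.8 and 25.6 CPM, again without overlap (−0.33 ± 0.07 SE, adjusted p = 0.000589). In IRF1shRNA cells EFNB3 and EFNB1 stood close together per length, at 7.27 and 6.996 CPM per kilobase on average, whereas in control cells they were at 9.13 and 13.1.

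EFNA2, a lipid-anchored ephrin, was scarce, at 0.438, 0.522 and 0.563 CPM in control and 0.365, 0.180 and 0.194 CPM in IRF1shRNA cells. IRF1shRNA replicate 1 lay nearest to the control samples, and the log2 fold change was −1.01 ± 0.31 SE (adjusted p = 0.0115). Without IRF1shRNA replicate 3 the call was lost (−0.80, adjusted p = 0.0665), as it was with all libraries thinned to the smallest total (−0.89, adjusted p = 0.0587). EFNA1, the ligand of EphA2 best known in epithelial cells, fell from 11.9 ± 0.31 to 10.1 ± 0.40 CPM (SD, n = 3; −0.25 ± 0.07 SE, adjusted p = 0.00642). EFNA3, EFNA4 and EFNB2 did not pass, with log2 fold changes of −0.25, −0.08 and −0.04, and EFNA3 passed when IRF1shRNA replicate 2 was left out (adjusted p = 0.0153). EFNA3 shares 44.7% and EFNA4 15% of its exon bases with a read-through gene annotated on the same strand in GENCODE 29, so counts of these ephrins are uncertain. EFNB2 shares 26.2% of its exon bases with a gene on the other strand.

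Eph receptors changed in both directions, with 3 higher, 4 lower and 3 not past the threshold among the 10 tested and a median log2 fold change of −0.03, beside 24.1% of all genes called higher and 26.4% lower. The members that changed over 2-fold were EPHA3, which fell, and EPHB2, which rose.

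EPHA4 (chr2:221418027-221574202, minus strand) encodes an Eph receptor that binds ephrins of both classes. It was at 102, 97.7 and 97.8 CPM in control and 49.0, 54.7 and 55.3 CPM in IRF1shRNA cells, with no overlap. The fall was 1.87-fold (log2 fold change −0.91 ± 0.05 SE, adjusted p = 9.46e-11, edgeR). Its promoter window held the same core letters 79 bases before an annotated start, on the strand of the gene. That start is the most upstream of the gene, and 250 bases before and 10 after it (chr2:221574193-221574452, minus strand, RefSeq, GRCh38.p14) are printed with the match in capitals, for comparison with the window of SEMA3F.
EPHA4: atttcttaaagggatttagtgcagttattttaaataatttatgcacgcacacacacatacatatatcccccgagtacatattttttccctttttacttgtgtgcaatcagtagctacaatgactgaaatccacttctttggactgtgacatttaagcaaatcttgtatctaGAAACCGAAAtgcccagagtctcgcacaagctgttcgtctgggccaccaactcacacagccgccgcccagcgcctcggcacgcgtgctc
In EPHA4 the match reads GAAACCGAAA, and in SEMA3F it reads TTTCCTTTTC, which holds the searched letters on the reverse strand.

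EPHA3 (chr3:89107524-89482134, plus strand), a receptor for EFNA5, fell from 7.55, 7.02 and 7.88 CPM to 2.76, 3.71 and 3.37 CPM. The highest IRF1shRNA sample was far below the lowest control sample, and the fall was 2.31-fold (−1.21 ± 0.10 SE, adjusted p = 2.92e-08). EPHA7, another receptor for ephrin-A ligands, fell from 1.63, 1.34 and 1.73 CPM to 0.905, 1.19 and 0.924 CPM, with a narrow gap between the groups (−0.67 ± 0.17 SE, adjusted p = 0.00266).

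EPHA5 (chr4:65319563-65670495, minus strand), a receptor for ephrin-A ligands known mainly from the nervous system, moved upward, from 26.8, 24.7 and 26.2 CPM to 41.6, 40.9 and 43.8 CPM. The groups were apart in every sample, and the rise was 1.63-fold (0.70 ± 0.05 SE, adjusted p = 8.55e-09). EPHA5 shares 5.44% of its exon bases with EPHA5-AS1 on the other strand, which averaged 2.24 and 2.58 CPM and did not pass (0.20, adjusted p = 0.169). EPHA6, of the same class, was at 1.10, 1.27 and 1.44 CPM in control and 1.90, 1.64 and 1.598 CPM in IRF1shRNA cells (0.43 ± 0.15 SE, adjusted p = 0.0234). Though the groups did not overlap, that call was lost without control replicate 1 (0.34, adjusted p = 0.0955), control replicate 2 (0.43, adjusted p = 0.0624) or IRF1shRNA replicate 1 (0.34, adjusted p = 0.125).

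EPHB2, a receptor for EFNB1 that also binds EFNA5, rose from a low level. It had 0.495, 0.457 and 0.584 CPM in control and 1.14, 1.15 and 1.09 CPM in IRF1shRNA cells, so that all IRF1shRNA samples were well above the controls, by 2.18-fold (1.13 ± 0.19 SE, adjusted p = 8.51e-05). EPHB4, the receptor of EFNB2 and far more abundant, fell from 135, 142 and 144 CPM to 108, 106 and 111 CPM, without overlap (−0.37 ± 0.04 SE, adjusted p = 1.09e-06). EPHB3 did not pass.

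EPHA2, which binds EFNA1 and is commonly abundant in triple-negative lines, was the most abundant member of all 53 per length. It was at 384, 395 and 408 CPM in control and 395, 386 and 395 CPM in IRF1shRNA cells. The groups overlapped, and the interval of the log2 fold change ran from −0.10 to 0.07 (adjusted p = 0.79). EPHA1 did not pass, and EPHA8, EPHA10, EPHB1 and EPHB6 were too low to test. No untested member exceeded a count of 14, or 0.114 CPM, in any library.

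Summed per length, the ephrins were the family whose total differed most. Ephrin levels added up to 43.6, 45.8 and 45.7 CPM per kilobase in control and 31.6, 31.8 and 33.3 in IRF1shRNA cells, or 71.7% of control on average. The totals of the Eph receptors (134.5 ± 3.31 and 123.5 ± 1.69 CPM per kilobase, SD, n = 3), of the plexins and neuropilins (63.5 ± 1.81 and 58.4 ± 1.84) and of the semaphorins (58.6 ± 2.20 and 57.3 ± 1.51) stood at 91.8%, 92% and 97.7% of control. The semaphorin totals of the groups overlapped, and those of the other families did not. These sums are described without a test.

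Within the families the make-up moved. SEMA3F made up 16.8 to 19.1% of the semaphorin total in control samples and 6.85 to 7.66% in IRF1shRNA samples, and SEMA7A 1.15 to 1.76% and 4.25 to 5.07%. SEMA4B and SEMA3C remained the leading semaphorins in all samples, at 27.5 to 29.6% and 24.7 to 27.8% in control and 33.0 to 34.7% and 28.2 to 30.8% in IRF1shRNA samples. Among ephrins, EFNB1 went from 28.4 to 30.1% in control down to 21.2 to 22.3% in IRF1shRNA samples and EFNA5 from 11.5 to 12.6% down to 6.89 to 7.20%, while EFNA4, which did not pass the test itself, made up 14.7 to 15.3% and then 19.0 to 20.4% of a smaller total. Among Eph receptors, EPHA2 made up 70.4 to 71.1% in control and 75.9 to 76.8% in IRF1shRNA samples, EPHA4 went from 9.39 to 10.3% to 5.25 to 5.94%, and EPHA5 from 1.87 to 2.07% to 3.41 to 3.56%. NRP1 and PLXNB2 led the semaphorin receptors in all samples, and the share of PLXNA1 went from 8.27 to 8.83% to 12.8 to 13.6%.

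**Figure D3:**
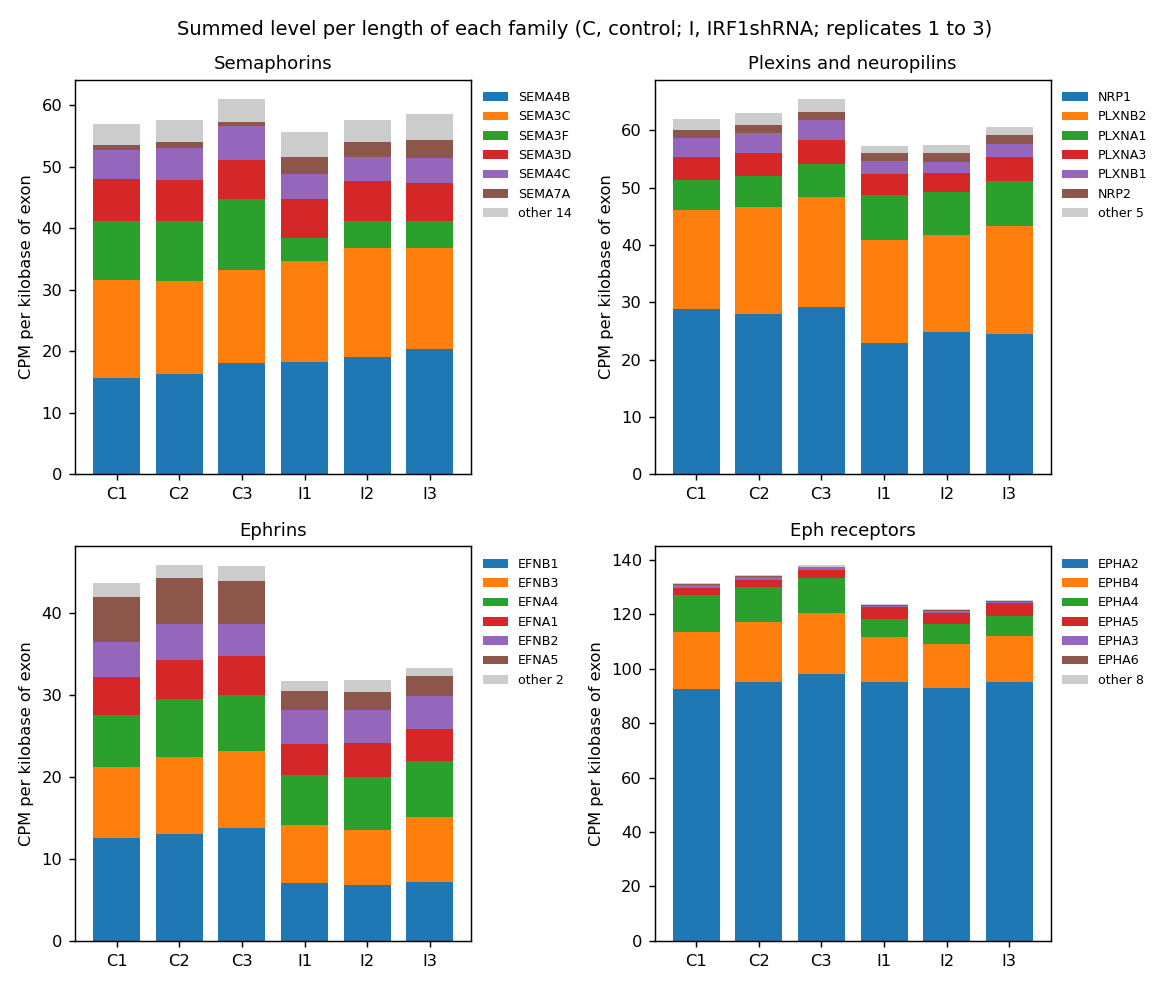
Summed level of each family in CPM per kilobase of exon (y axis, from 0) in control replicates 1 to 3 (C1 to C3) and IRF1shRNA replicates 1 to 3 (I1 to I3), with stacked colours for the 6 most abundant members and grey for the others. The ephrin bars reach 43.6 to 45.8 in control and 31.6 to 33.3 in IRF1shRNA samples, and EPHA2 fills most of each Eph bar.

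Members that rose tended to be scarcer than members that fell. The median level over all samples was 0.329 CPM per kilobase for the 13 higher members, 3.85 for the 17 lower members and 1.01 for the 16 that did not pass. Below 5 CPM lay 8 of the 13 higher members and 4 of the 17 lower members. For all genes, the medians of those called higher and lower were 4.63 and 5 CPM per kilobase, above the member medians in both directions. The split by level was wider among the members than among all genes, which was not tested. The 13 higher members and the 8 of them below 5 CPM include SEMA3E, at 0.0111 CPM per kilobase. SEMA3E passed the filter through the IRF1shRNA samples alone.

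Some members lie near each other in the genome, and their values are given side by side. On chromosome 1, the starts of EFNA4, EFNA3 and EFNA1 lie within 63729 bases, and their log2 fold changes were −0.08, −0.25 and −0.25. On chromosome 3, SEMA3F fell while SEMA3B, whose start is 112513 bases away, did not pass (0.32, adjusted p = 0.111). On chromosome 7, SEMA3A fell and SEMA3D, 694131 bases from it, did not pass (−0.07). The differences between such neighbours were not tested.

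The proteins that act with these ligands and receptors were described from a list of 64 signalling partners, of which 61 were tested. Of these, 10 rose, 33 fell and 18 did not pass, with a median log2 fold change of −0.17 (all genes, 24.1% called higher and 26.4% called lower). Over 2-fold, 0 of the 61 rose and 1 fell (all genes, 3.43% higher and 4.43% lower over 2-fold). On the semaphorin side 2 of 32 rose and 19 fell, and on the Eph side 6 of 24 rose and 12 fell. The others are proteases that shed or process ligands and receptors. KDR, FES and ARHGEF15 were too low to test.

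On the semaphorin side, DPYSL2, which encodes CRMP2, the mediator of SEMA3A signals to microtubules, went from 937, 929 and 983 CPM to 509, 534 and 543 CPM, with no overlap (−0.85 ± 0.04 SE, adjusted p = 6.78e-11). MICAL3 fell from 149, 152 and 149 CPM to 90.0, 90.7 and 92.3 CPM (−0.72 ± 0.04 SE, adjusted p = 1.20e-10), whereas its relative MICAL2, like it an oxidoreductase acting on actin, rose from 129, 138 and 122 CPM to 166, 173 and 167 CPM (0.38 ± 0.05 SE, adjusted p = 2.59e-06). CRMP1, DPYSL3 and DPYSL4, relatives of DPYSL2, fell too, by 0.50, 0.54 and 0.24 on the log2 scale, and DPYSL5, the remaining relative, was at 0.38 and did not pass (adjusted p = 0.421). The GTPase RAC1 fell (−0.34 ± 0.04 SE, adjusted p = 1.95e-06) and RHOA did not pass (−0.07, adjusted p = 0.192). LIMK1 and CFL1, which act on actin, did not pass either (−0.13 and −0.02).

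On the Eph side, several listed genes encode guanine nucleotide exchange factors, which activate small GTPases. NGEF, which encodes ephexin-1, a direct partner of EphA4, fell 2.29-fold, from 18.1, 17.9 and 20.5 CPM to 7.96, 7.86 and 8.79 CPM, and was the sole partner past 2-fold (−1.20 ± 0.08 SE, adjusted p = 7.16e-10). VAV2 fell from 82.7, 83.3 and 84.9 CPM to 48.5, 46.5 and 48.4 CPM (−0.81 ± 0.04 SE, adjusted p = 4.85e-11), and VAV3 and TIAM1 fell by 0.90 and 0.26 on the log2 scale. Of the other exchange factors listed there, RIN1 fell by 0.62 on the log2 scale, ITSN1 rose (0.19 ± 0.05 SE, adjusted p = 0.00171), KALRN did not pass (−0.23, adjusted p = 0.515) and ARHGEF15 was too low to test. SYNJ1, which encodes the lipid phosphatase synaptojanin-1 of endocytosis, rose from 48.7, 46.7 and 45.7 CPM to 65.3, 69.5 and 69.7 CPM (0.53 ± 0.04 SE, adjusted p = 2.39e-08). PTPN11, which encodes the phosphatase SHP2, rose from 362, 359 and 336 CPM to 437, 467 and 435 CPM (0.34 ± 0.05 SE, adjusted p = 6.88e-06).

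Among the shedding proteases, FURIN, which cleaves class 3 semaphorins, rose (0.39 ± 0.07 SE, adjusted p = 0.000105), as did ADAM10, which cleaves ephrins (0.12 ± 0.04 SE, adjusted p = 0.0293). ADAM17, which sheds many surface proteins, fell by 0.11 on the log2 scale, and MMP14 did not pass (−0.08, adjusted p = 0.193).

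**Figure D4:**
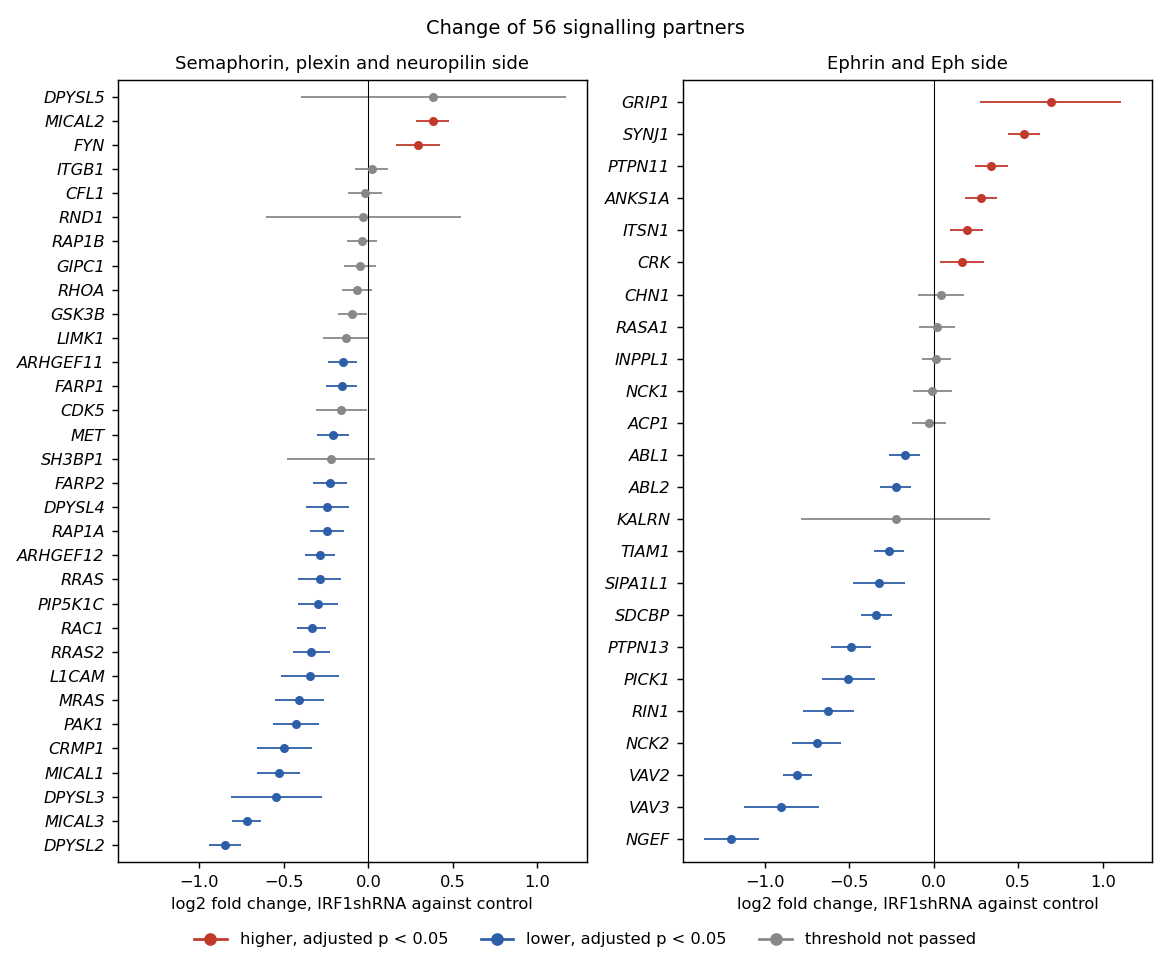
Log2 fold change of IRF1shRNA against control cells (x axis) for 56 signalling partners tested on the semaphorin and Eph sides, with points for the edgeR estimate, bars for its 95% confidence interval, and red, blue and grey as for the members. Of the 56, 31 lie to the left of 0 in blue and 8 to the right in red (all genes, 26.4% called lower and 24.1% higher). NGEF at −1.20 lies furthest from 0.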

How the data were processed

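RNA-seq of BT-549 cells (3 control and 3 IRF1shRNA samples, replicate numbers from the labels) was used. The authors deposited whole-number counts per gene symbol, not normalized. The submitters' processing notes name CASAVA 1.8.2, STAR 2.7.9a, featureCounts, DESeq2 1.24.0 and the build GRCh38.p7. The annotation release, the strand setting and the handling of read pairs are not given in the sources used here. The kit was stranded, but if strand was ignored in counting, a gene and its antisense partner cannot be told apart. Even numbers made up 72.1 to 75.2% of the counts from 2 to 11, so mates appear to have been counted separately and a count is not an independent fragment, and counting floors cover counting error only.

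Counts were fitted with edgeR 4.0.16 in R 4.3.3 (TMM, filterByExpr with a minimum count of 10, glmQLFit and glmQLFTest on group), with Benjamini-Hochberg adjustment over all 18851 genes tested and a threshold of 0.05. SE is the log2 fold change divided by the square root of F. The p-values measure the spread between triplicate cultures. Levels per length used the union of exons in GENCODE 29 on GRCh38, which may differ from the authors' annotation. The detection floor was 3 counts, or 0.0182 to 0.0540 CPM. Sample depth ran from 55143808 to 160436234 counts.

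Members named were the 3 with the greatest change in each direction and role among those called and averaging at least 1 CPM, every member past 2-fold, and the 2 most abundant per length in each role, and partners named were the 3 with the smallest adjusted p in each direction. Other members and partners given with values were named after their values were seen. Among them are NGEF, PLXNB1, NRP2, PLXNA3, PLXNB3, PLXNC1, SEMA6A, SEMA6C, EFNA1 and EFNA3. Members and lists were chosen with earlier results of these data known. Alternatives were DESeq2 1.42.0, other scalings and filters, halved and thinned counts, a block, a stricter threshold and leaving out each library. The fits were tested on simulated data. Protein sequences were not used here, and some listed items are not reported here.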

Additional observations from a re-analysis of the deposited data

How the results depend on the processing

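The 30 called members kept their sign, and 22 of them also their call, in every alternative fit in which they were tested. Of 15 such fits, SEMA3E was tested in 12 and SEMA4A and EFNA2 in 14. DESeq2 called 29 members, all among the 30. Leaving out 1 library gave 8 to 12 members called higher, against 13 with all libraries, the lowest without control replicate 2. The share of all genes called higher fell as well, to 20.2 to 23%, against 24.1% with all libraries, and was also lowest without control replicate 2. The number higher over 2-fold was 2 instead of 4 with a filter of 1 CPM in at least 3 samples, which leaves SEMA3E and SEMA4A untested. The other counts stayed within 1.5 times. Replicate numbers did not pair the samples: the correlation of their deviations within a number averaged 0.0105, with 0 of 3 pairs over 0.1, and 3 of 6 samples correlated best with their own number. With the replicate block, 13 members were called higher and 17 lower, 4 and 6 over 2-fold, and 10 and 33 partners higher and lower, and all 30 member calls were shared.

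EPHA2, PLXNB2, EFNB2, EPHA1, NRP2 and SEMA5B, which did not pass, changed sign in at least 1 alternative fit. Across the fits in which each was tested, the log2 fold change ran from −0.089 to 0.0093 for EFNB2. It ran from −0.44 to 0.13 for EPHA1, −0.0057 to 0.079 for NRP2 and −0.087 to 0.45 for SEMA5B. With upper quartile scaling the log2 fold changes of EPHA2 and PLXNB2 were 0.028 and 0.013, and with library size only 0.036 and 0.020. Leaving out 1 library gave −0.039 to 0.0099 for EPHA2 and −0.075 to 0.011 for PLXNB2. With the 1 CPM filter EPHA2 stood at 0.0090. At an adjusted p of 0.01, 9 members were higher and 15 lower, and EFNA2, EPHA6, PLXND1, SEMA3C, SEMA6A and SEMA6C were no longer called. The share of all genes called at 0.01 is not given here, so these counts are not set against it.

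Members near 1 CPM or less limit what depth can show here: 7 tested members averaged below 1 CPM.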

Other observations

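The antisense genes of members that were tested gave no call, and EPHA1-AS1, SEMA5A-AS1 and SEMA6A-AS2 were too low to test. SEMA3F-AS1, which overlaps 2.28% of the exon bases of SEMA3F on the other strand, averaged 0.985 ± 0.15 CPM in control and 1.11 ± 0.12 CPM in IRF1shRNA cells (SD, n = 3; log2 fold change 0.19 ± 0.18 SE, adjusted p = 0.412, edgeR), beside the fall of SEMA3F. SEMA3B-AS1 and SEMA6A-AS1 did not pass (0.42, adjusted p = 0.467, and 0.28, adjusted p = 0.476).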
